A study of Mus musculus with 24 samples.

Results

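Liver transcripts of *Pparg*, *Cd36* and 8 genes of the lipid droplet were followed across untreated mice, mice made diabetic with streptozotocin (STZ) and STZ mice fed quercetin. The 10 genes, *Pparg*, *Cd36*, *Cidec*, *Plin2*, *Plin4*, *Plin5*, *Fabp4*, *Mogat1*, *G0s2* and *Pnpla2*, were taken by name, as the probe sets that the platform table pairs with 1 of these symbols and no other. They were 10 of 18194 genes with such a probe set, held 17 probe sets, and all 10 passed the filter on low values that left 13114 genes for testing. All animals were male BALB/c mice that were 6 weeks old at the start, with 6 mice in each of 4 groups and 1 Affymetrix array per liver. Untreated mice were fed the purified AIN93G diet and received no injection. STZ mice were given 185 mg/kg of STZ, a compound toxic to insulin-producing beta cells, by the intraperitoneal route, and were kept if their non-fasting blood glucose lay between 230 and 400 mg/dL. They were then fed AIN93G alone or AIN93G with 0.1% or 0.5% quercetin, a plant flavonol, for 14 days. Because the untreated mice were not injected with buffer, the injection and STZ cannot be told apart in these groups, and the glucose range left out milder and more severe cases. Mice shared cages, and which mouse lived in which cage is not given in the labels, so an effect of the cage cannot be told apart from the spread between mice.

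PPAR-gamma, the product of *Pparg*, is a nuclear receptor that binds DNA together with a retinoid X receptor and is best known as the master regulator of fat cells. In liver it is normally scarce, and its activity is known to raise fatty acid uptake, triglyceride synthesis and the coat proteins of lipid droplets. Droplets store triglyceride under a coat of perilipins, and the fat leaves them through lipases such as ATGL, the product of *Pnpla2*.

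PPAR-gamma binds direct repeats of the hexamer AGGTCA with 1 base between them, so the stretch around the annotated start of the genes on which the results turn is shown first. The sequences come from RefSeq on the GRCm38.p6 assembly and run from 250 bases before the start to 50 bases after it, 5′ to 3′ on the strand of the gene. Capitals mark AGGTCA, or TGACCT where the hexamer lies on the other strand. The *Cd36* and *Mogat1* windows are shown because these genes rose in STZ liver, and 2 of the 3 *Pparg* windows because they held the hexamer.
Cd36, chr5:17835847-17836146, minus strand: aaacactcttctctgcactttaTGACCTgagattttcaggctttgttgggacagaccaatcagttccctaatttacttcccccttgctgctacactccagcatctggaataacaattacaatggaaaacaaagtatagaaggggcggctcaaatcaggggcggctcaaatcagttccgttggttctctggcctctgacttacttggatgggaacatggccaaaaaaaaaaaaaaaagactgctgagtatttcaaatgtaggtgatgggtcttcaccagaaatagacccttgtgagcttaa
Mogat1, chr1:78510810-78511109, plus strand: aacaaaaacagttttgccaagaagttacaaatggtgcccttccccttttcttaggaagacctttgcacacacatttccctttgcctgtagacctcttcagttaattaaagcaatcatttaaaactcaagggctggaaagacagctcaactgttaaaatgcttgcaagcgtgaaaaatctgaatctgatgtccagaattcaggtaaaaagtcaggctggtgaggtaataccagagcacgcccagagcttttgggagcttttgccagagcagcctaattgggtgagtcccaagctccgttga
Pparg, chr6:115360894-115361193, plus strand: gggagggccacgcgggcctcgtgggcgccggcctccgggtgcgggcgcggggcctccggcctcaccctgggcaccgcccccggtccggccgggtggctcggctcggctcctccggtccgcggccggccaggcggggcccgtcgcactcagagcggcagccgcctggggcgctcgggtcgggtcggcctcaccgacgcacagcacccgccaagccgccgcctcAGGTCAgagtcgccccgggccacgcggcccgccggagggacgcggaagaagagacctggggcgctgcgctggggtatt
Pparg, chr6:115362099-115362398, plus strand: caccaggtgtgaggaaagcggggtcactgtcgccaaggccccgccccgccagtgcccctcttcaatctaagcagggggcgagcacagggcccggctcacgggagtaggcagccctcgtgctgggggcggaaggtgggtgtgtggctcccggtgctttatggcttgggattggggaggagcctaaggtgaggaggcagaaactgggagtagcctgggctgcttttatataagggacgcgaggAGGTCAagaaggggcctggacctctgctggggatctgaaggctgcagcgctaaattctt
In the *Cd36* window the hexamer begins 228 bases before the start, and in the 2 *Pparg* windows shown it begins 28 and 9 bases before it. The third *Pparg* window holds no match and is not shown. No match lies in the *Mogat1* window, which says only that these letters are not within these 300 bases. Windows were found for 9 of the 10 genes (13 windows, *Fabp4* having none). AGGTCA, read on both strands, was in 6 of the 13, belonging to 4 genes (*Pparg*, *Cd36*, *Plin2* and *Plin5*), against 16.3% of 32851 windows of all genes. The 2 *Plin5* windows overlap in part. The full repeat, 2 AGGTCA hexamers with any 1 base between them, read on both strands and itself containing the hexamer, was in 0 of the 13 and in 0.0396% of all windows. A match describes letters and is no evidence of binding.

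The deposited intensities averaged 61.0 to 102 per array and were quantile normalized, and every level below is such an intensity in arbitrary units. Differences are on the scale log2(intensity + 16), in which the constant understates the change of dim genes, and a gene was called where limma's adjusted p was under 0.05. The hepatocyte markers were bright in every liver, *Alb* lying between 6789 and 8122 and *Apoa1* between 7210 and 9405. Defining markers of adipocytes were near 0, with medians of 0.497 for *Adipoq* and 0.544 for *Lep*. The 7 adipocyte markers with a probe set summed to between 30.5 and 67.8 in untreated mice and between 38.5 and 68.9 in STZ mice, and 4 of them failed the filter. In bulk liver, fewer cells of a type and less RNA per cell cannot be told apart.

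STZ was set against no treatment on the same diet to see which of these genes differ in diabetic liver. *Cd36*, a fatty acid and lipoprotein receptor of the cell surface, and *Mogat1*, an acyltransferase that makes diacylglycerol from monoacylglycerol, rose. In *Cd36* the ratio of mean intensities was 6.16, and in *Mogat1* it was 2.57. No gene of the 10 fell past the threshold, and neither *Pparg* nor any of the 3 perilipins passed it. Thus 2 of the 10 were called higher, where 2.03% of all genes tested were, and 0 were called lower, where 1.69% were. At an unadjusted p under 0.05 limma gave 5 of the 10 and 16.7% of all genes. The median difference of the 10 was 0.23, against -0.02 over all genes tested, and 9 of the 10 differences were above 0.

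**Figure D1:**
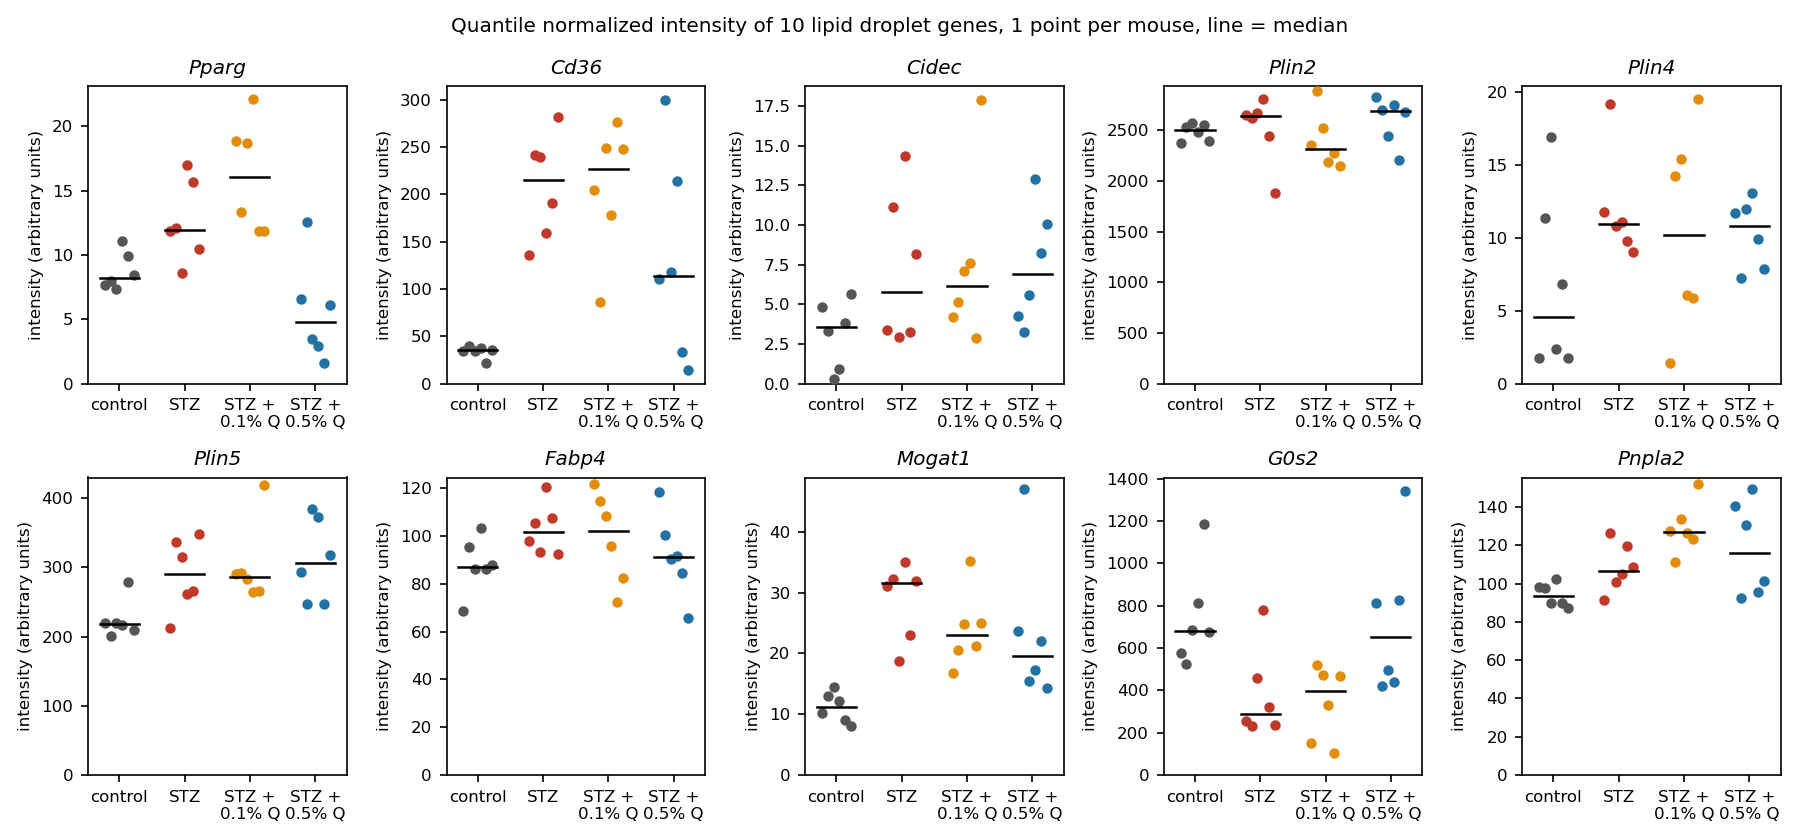
Quantile normalized intensity (arbitrary units, linear axis from 0) of the representative probe set of each of the 10 genes, with 1 point per mouse, the median as a line and 6 mice per group; Q stands for quercetin. All STZ points of Cd36 and Mogat1 lie above all untreated points, and in Pparg 5 of the 6 points at 0.5% quercetin lie below all points of the STZ and 0.1% groups.

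*Pparg*, the regulator, was dim throughout. Its intensity had a lowest, median and highest value of 7.37, 8.19 and 11.1 in untreated mice and of 8.62, 12.0 and 17.0 in STZ mice. At 0.1% quercetin the 3 values were 11.8, 16 and 22.1, and at 0.5% they were 1.61, 4.80 and 12.5. The 0.1% group was the highest and the 0.5% group the lowest of the 4 by median, and only the untreated and 0.1% groups did not overlap at all. The level under which a gene was left out was 3.88, and 3 of the 6 mice at 0.5% lay below it for *Pparg*. STZ mice differed from untreated mice by 0.21 ± 0.10 (SE, n = 6 per group), which did not pass (limma adjusted p = 0.326).

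Among the genes of fatty acid uptake, *Cd36* ranged from 21.6 to 39.8 in untreated mice, with a median of 35.2. Its lowest, median and highest values were 136, 215 and 282 in STZ mice and 86.6, 227 and 276 at 0.1% quercetin. At 0.5% they were 14.0, 114 and 300. Every STZ mouse and every 0.1% mouse lay above every untreated mouse, while the 0.5% group spanned both levels. The STZ difference was 2.14 ± 0.37 (95% interval 1.38 to 2.91; 4.42-fold on this scale; limma adjusted p = 0.00147). Genes in which every STZ mouse lay above every untreated mouse made up 1.96% of all genes tested.

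The gene has 3 probe sets, and all of them gave the same direction. The brightest, 1450883_a_at, stands for the gene above. Probe set 1423166_at rose by 1.67 ± 0.24 (limma adjusted p = 0.000313 over 27061 probe sets) and 1450884_at by 0.79 ± 0.18 (limma adjusted p = 0.0128). In both, all 6 STZ mice lay above all untreated mice.

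**Figure D2:**
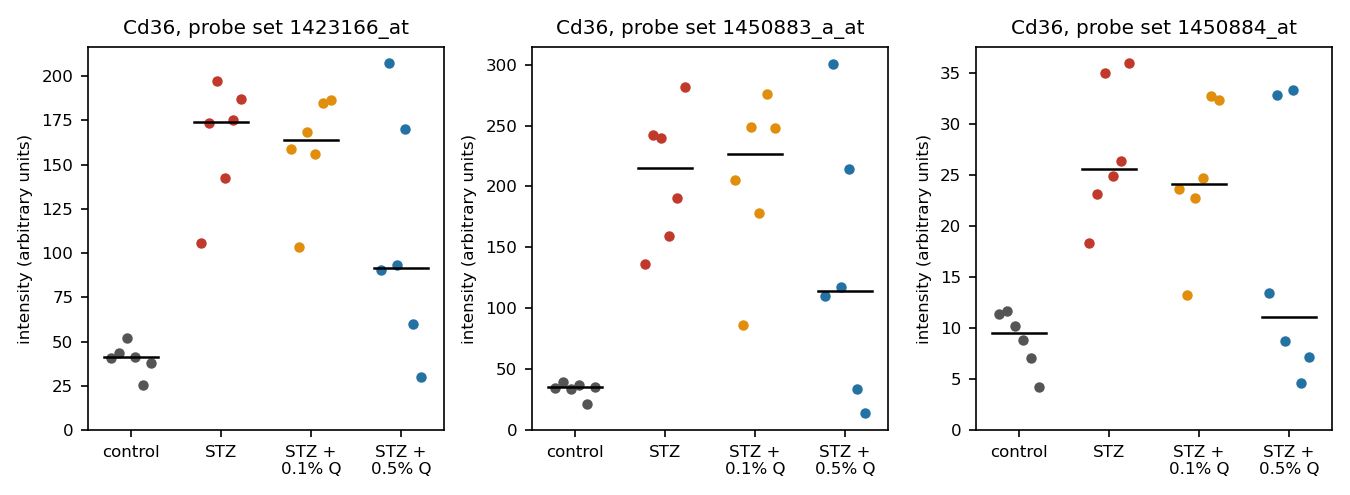
Quantile normalized intensity (arbitrary units, linear axis from 0) of the 3 Cd36 probe sets, with 1 point per mouse, the median as a line and 6 mice per group. In each probe set the STZ mice lie above the untreated mice, and the mice at 0.5% quercetin are spread from untreated to STZ levels.

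*Fabp4*, a carrier of fatty acids in adipocytes, macrophages and capillary endothelium, was nearly level. It lay between 68.5 and 103 in untreated mice (median 87.1) and between 92.4 and 120 in STZ mice (median 102). Its range was 72.3 to 122 at 0.1% quercetin and 65.8 to 118 at 0.5%, so that all groups overlapped. The STZ difference was 0.20 ± 0.11 (limma adjusted p = 0.395). A second probe set, 1451263_a_at, differed by 0.30 ± 0.09 (limma adjusted p = 0.0977), and the other 2 failed the filter.

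For triglyceride synthesis, *Mogat1* had a lowest, median and highest intensity of 8.0, 11.2 and 14.4 in untreated mice. The values were 18.8, 31.5 and 35.1 in STZ mice, 16.8, 23.0 and 35.2 at 0.1% quercetin, and 14.4, 19.6 and 47.0 at 0.5%. All STZ and all 0.1% mice lay above all untreated mice, and at 0.5% 5 of 6 did. *Mogat1* rose in STZ mice by 0.71 ± 0.14 (95% interval 0.43 to 0.99; limma adjusted p = 0.00389).

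The droplet coat gave no call. *Plin2*, the main perilipin of hepatocytes, lay between 2376 and 2576 in untreated mice (median 2506) and between 1885 and 2809 in STZ mice (median 2638). Its difference was 0.01 ± 0.09, with a 95% interval of -0.18 to 0.19 (limma adjusted p = 0.982). Groups overlapped widely, and the untreated mice were the tightest.

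*Plin5*, which ties droplets to mitochondria, had a lowest, median and highest intensity of 201, 218 and 279 in untreated mice and 213, 290 and 348 in STZ mice. The values were 264, 287 and 419 at 0.1% quercetin and 247, 306 and 384 at 0.5%. Medians of the 3 STZ groups were all above that of the untreated mice, with 1 untreated mouse at the level of the STZ groups. The STZ difference was 0.34 ± 0.13 (limma adjusted p = 0.150), and that of the dimmer probe set 1424937_at was 0.38 ± 0.17 (limma adjusted p = 0.280). The suffix of the brighter one, 1441915_s_at, marks probes that can match more than 1 transcript.

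*Plin4*, a perilipin of adipocytes and muscle, and *Cidec*, which drives the fusion of droplets, were close to the filter. *Plin4* spanned 1.40 to 19.5 and *Cidec* 0.284 to 17.9 over the 24 livers, and all groups overlapped in both. The STZ differences were 0.32 ± 0.16 for *Plin4* (limma adjusted p = 0.291) and 0.26 ± 0.14 for *Cidec* (limma adjusted p = 0.340).

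In lipolysis, *Pnpla2*, the lipase ATGL, had a lowest, median and highest intensity of 87.1, 93.7 and 103 in untreated mice and 91.4, 107 and 126 in STZ mice. The values were 111, 127 and 152 at 0.1% quercetin and 92.5, 116 and 149 at 0.5%. Only the 0.1% group lay wholly above the untreated mice. The STZ difference was 0.17 ± 0.10 (limma adjusted p = 0.398). The second probe set of the gene, 1428591_at, failed the filter.

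*G0s2*, whose product inhibits ATGL, had a lowest, median and highest intensity of 523, 682 and 1189 in untreated mice. The values were 230, 288 and 781 in STZ mice, 106, 398 and 521 at 0.1% quercetin, and 422, 655 and 1345 at 0.5%. Of the STZ mice, 5 of 6 lay below all untreated mice, and STZ replicate 4 was the exception. The difference was -1.03 ± 0.34, which did not pass (limma adjusted p = 0.0969). Without STZ replicate 4 it was -1.26 (limma adjusted p = 0.0346), the only 1 of 12 fits with 1 mouse left out that passed. Since it leaves out the highest *G0s2* value of the STZ group, that fit describes *G0s2* and does not test it. A fit of the 2 compared groups alone gave a limma adjusted p of 0.0262, the only 1 of 11 other settings that passed.

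A measure of RNA quality from *Gapdh* moved with STZ, toward less 3′ relative to 5′ intensity, and that from beta-actin did not pass. Intensity at the 3′ end over that at the 5′ end of *Gapdh*, on a log2 scale and from the control probe sets of the array, was -0.34 ± 0.10 in STZ mice and -0.04 ± 0.17 in untreated mice (SD, n = 6; exact permutation p = 0.00433, two-sided, adjusted 0.0260 over 6 tests). That of beta-actin was 1.12 ± 0.23 and 1.24 ± 0.19 (exact permutation p = 0.331, adjusted 0.662). With this *Gapdh* measure as a covariate, the *Cd36* change was 1.12 ± 0.35 (limma adjusted p = 0.313) and the *Mogat1* change 0.72 ± 0.18 (limma adjusted p = 0.145), so that 0 of the 10 were called. Over all genes that fit called 4 higher and 2 lower, where the fit without the covariate called 266 and 222. The measure differs between the groups, so its part and that of STZ cannot be told apart by this fit.

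Macrophages and endothelium also express *Cd36* and *Fabp4*. Of 13 macrophage and Kupffer cell markers tested, 4 rose in STZ mice, among them *Mpeg1* by 0.70, *C1qb* by 0.62 and *Cd5l* by 0.58. Of all genes tested, 2.03% were called higher. The summed level of the list was 1422 to 1812 in untreated mice, 1969 to 2514 in STZ mice, 2050 to 2413 at 0.1% quercetin and 1422 to 2302 at 0.5%. Of 10 endothelial markers only *Lyve1* rose, by 1.02 ± 0.18 (limma adjusted p = 0.00181), and their sums overlapped, at 686 to 766 in untreated and 680 to 812 in STZ mice. *Dcn* (0.41) was the 1 of 9 stellate cell markers that rose. The part of these cells in the *Cd36* change was not tested.

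Other genes of these pathways follow by list for STZ liver, where 2.03% of all genes tested were called higher and 1.69% lower. Of 13 further genes of the droplet coat and of droplet assembly 0 were called, with a median difference of -0.03; the smallest p belonged to *Fitm2*, which partitions triglyceride into droplets (0.23, limma adjusted p = 0.242). Of 12 genes of triglyceride assembly, *Gpam*, the mitochondrial acyltransferase of the first step, fell by 0.42 (limma adjusted p = 0.0430) and 11 did not pass. The median difference of these 12 genes was 0.02, against -0.02 over all genes tested. Their summed level was 3386 to 3883 in STZ mice and 3953 to 4314 in untreated mice, with no overlap. Median intensities over all livers ran from 4.64 for *Lpin3* to 1133 for *Dgat2*, so the sum mostly follows the bright genes of the list. Of 9 other lipases and cofactors, *Ces1g*, a liver carboxylesterase, rose by 0.56 (limma adjusted p = 0.0244). Of 13 genes of fatty acid uptake, binding and activation 0 were called, and the smallest p was that of the carrier *Fabp5* (-1.61 ± 0.51, limma adjusted p = 0.0775). Of 12 partners and regulators of PPAR-gamma, the transcription factor gene *Cebpa* fell by 0.59 (limma adjusted p = 0.0280). Of 7 other known targets of the receptor that were tested, *Vldlr*, a lipoprotein receptor, rose by 0.52 (limma adjusted p = 0.0452). The median difference of the 7 tested targets was 0.25, against -0.02 over all genes tested. All 11 target genes with a probe set were also summed, 4 of them under the filter. The sum had a median of 872 in STZ mice (738 to 1352) and 1590 in untreated mice (903 to 2822). The groups overlapped. Bright genes weigh most in such a sum, and this list also held *Fabp5* (-1.61, not called), which spanned 116 to 2332 over all livers. These sums were not tested.

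Quercetin was compared with STZ alone at each dose. Both doses share the same 6 STZ mice as control, so the doses were also compared with each other directly. At 0.1% quercetin 0 of the 10 genes were called, as were 0% of all genes; at an unadjusted p under 0.05 limma gave 1 of the 10 and 687 of all genes, or 5.24%. That 1 was *Pnpla2*, with a difference of 0.22 ± 0.10 (limma unadjusted p = 0.0357, adjusted p = 0.925). *Cd36* differed by -0.04, with a 95% interval of -0.81 to 0.72, and *Mogat1* by -0.16, with an interval of -0.45 to 0.12. *Pparg* differed by 0.16 ± 0.10 (limma adjusted p = 0.974).

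At 0.5% quercetin 0 of the 10 genes were called against STZ alone, again as 0% of all genes; at an unadjusted p under 0.05 limma gave 3 of the 10 and 985 of all genes, or 7.51%. The 3 were *Pparg*, *Cd36* and *G0s2*. *Pparg* differed by -0.42 ± 0.10, with a 95% interval of -0.64 to -0.21 and 5 of 6 mice below all STZ mice (limma unadjusted p = 0.00042, adjusted p = 0.365). *Cd36* differed by -0.98 ± 0.37 (limma adjusted p = 0.576) and *G0s2* by 0.91 ± 0.34 (limma adjusted p = 0.576).

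The *Cd36* value at 0.5% rested on quercetin replicates 5 and 6, with intensities of 33.7 and 14.0, while the other 4 mice lay between 110 and 300. Since these are the 2 lowest *Cd36* values of the group, a fit without both mice describes *Cd36* and does not test it. Without both mice the *Cd36* difference from STZ was -0.22 ± 0.26 (limma adjusted p = 0.999) and that of *G0s2* was 0.59 ± 0.37. *Pparg* was -0.37 ± 0.12 without them (limma adjusted p = 0.887). In these 2 mice the *Gapdh* measure was -0.06 and 0.01, within the untreated range of -0.18 to 0.28. Also within that range were STZ replicate 4 (-0.17), 0.1% replicate 2 (-0.07) and 0.5% replicate 1 (-0.14). Their *Cd36* intensities were 160, 86.6 and 110, above every untreated mouse. The part of the *Gapdh* measure in the *Cd36* levels of all these mice was not tested.

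Set directly against 0.1%, the 0.5% dose gave the lower *Pparg* level, at 5.54 ± 3.92 against 16.1 ± 4.35 (mean intensity ± SD, n = 6). The difference was -0.58 ± 0.10, with 5 of 6 mice below every 0.1% mouse. Its p of 6.66e-06 ranked 1 among the 13114 genes, yet the limma adjusted p was 0.0874, so *Pparg* was not called. With a constant of 1 in place of 16 the difference was -1.55 (limma adjusted p = 0.163). Without 0.5% replicate 2, the mouse with the highest *Pparg* in that group, it was -0.67 (limma adjusted p = 0.00368). That was the only 1 of 12 fits with 1 mouse left out that passed, and 0 of 11 other settings did. Since it leaves out the highest *Pparg* value of the group, it describes *Pparg* and does not test it. In this comparison 0 of the 10 genes and 0% of all genes were called, and at an unadjusted p under 0.05 limma gave 3 of the 10 and 1094 of all genes, or 8.34%. The other 2 were *G0s2* (1.13 ± 0.34, limma adjusted p = 0.402) and *Cd36* (-0.94 ± 0.37, limma adjusted p = 0.525).

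A slope on the percentage of quercetin over the 18 STZ mice called 0 of the 10 genes and 0% of all genes, with 3 of the 10 and 1066 of all genes, or 8.13%, at an unadjusted p under 0.05 in limma. The *Pparg* slope was -1.02 ± 0.24 per 1% of the diet (limma adjusted p = 0.325).

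Further genes of the pathways gave no call for quercetin against STZ alone at either dose. Among the other known PPAR-gamma targets, *Pdk4*, a kinase that holds back pyruvate oxidation, had the smallest p at both doses, with -0.64 ± 0.13 at 0.1% (limma adjusted p = 0.356) and -0.38 ± 0.13 at 0.5% (limma adjusted p = 0.537). Among the lipases, *Mgll*, which splits monoacylglycerol, had the smallest p of its list at 0.5% (0.41 ± 0.14, limma adjusted p = 0.562).

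Setting the quercetin groups against untreated mice showed how far their livers lay from that state. At 0.1% quercetin *Cd36*, *Mogat1*, *Pnpla2* and *Pparg* rose and *G0s2* fell. That made 4 called higher, where 2.94% of all genes were, and 1 called lower, where 2.64% were. In these 4 every 0.1% mouse lay above every untreated mouse, as in 2.11% of all genes, and in *G0s2* every mouse lay below, as in 1.83%. At an unadjusted p under 0.05 limma gave 6 of the 10 and 18.9% of all genes.

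The *Cd36* difference was 2.10 ± 0.37 (limma adjusted p = 0.00128), that of *Mogat1* 0.55 ± 0.14 (limma adjusted p = 0.0170) and that of *Pnpla2* 0.39 ± 0.10 (limma adjusted p = 0.0178). *Pparg* differed by 0.37 ± 0.10 (limma adjusted p = 0.0357) and *G0s2* by -1.24 ± 0.34 (limma adjusted p = 0.0307). With 1 mouse left out at a time, *Pparg* passed in 5 of 12 fits and *G0s2* in 7 of 12, while *Cd36* and *Mogat1* passed in all 12. *Pparg* lost its call without control replicate 1, 2, 3 or 6 or 0.1% replicate 1, 3 or 4, and *G0s2* without control replicate 3, 4 or 5 or 0.1% replicate 1 or 5, with adjusted p up to 0.0810 and 0.0981. Both also lost it on the values as deposited (limma adjusted p = 0.114 for *Pparg* and 0.0570 for *G0s2*) and with a constant of 1 (0.115 and 0.0638). *Pnpla2* lost it without 0.1% replicate 6 (limma adjusted p = 0.0560), on the values as deposited (0.234) and with median scaling (0.115). *Plin5* differed by 0.40 ± 0.13 and did not pass (limma adjusted p = 0.0646). It passed in 1 of 12 fits with 1 mouse left out, that without control replicate 5 (0.0395). Since that mouse had the highest *Plin5* of the untreated group, this fit describes *Plin5* and does not test it. Of 11 other settings 1 passed, a fit of the 2 compared groups alone (0.0446). With the *Gapdh* measure as a covariate 0 of the 10 were called, the *Cd36* difference being 1.16 ± 0.34 (limma adjusted p = 0.150).

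At 0.5% quercetin 0 of the 10 genes were called against untreated mice, where 0.13% of all genes were, and 6 of the 10 had an unadjusted p under 0.05 in limma, as did 12.3% of all genes. The differences were 1.16 ± 0.37 for *Cd36* (limma adjusted p = 0.187), 0.49 ± 0.14 for *Mogat1* (limma adjusted p = 0.134), 0.43 ± 0.13 for *Plin5* (limma adjusted p = 0.149), -0.22 ± 0.10 for *Pparg* (limma adjusted p = 0.404) and -0.11 ± 0.34 for *G0s2* (limma adjusted p = 0.932). Without replicates 5 and 6 *Cd36* was higher by 1.93 ± 0.26 (limma adjusted p = 3.55e-05), and *Mogat1* and *Pnpla2* passed as well (limma adjusted p = 0.0351 and 0.0488). Without replicate 6 alone *Cd36* (1.54, limma adjusted p = 0.0122) and *Mogat1* (0.56, limma adjusted p = 0.0481) passed. Both fits leave out the lowest *Cd36* values of the group, so for *Cd36* they are a description and not a test.

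**Figure D3:**
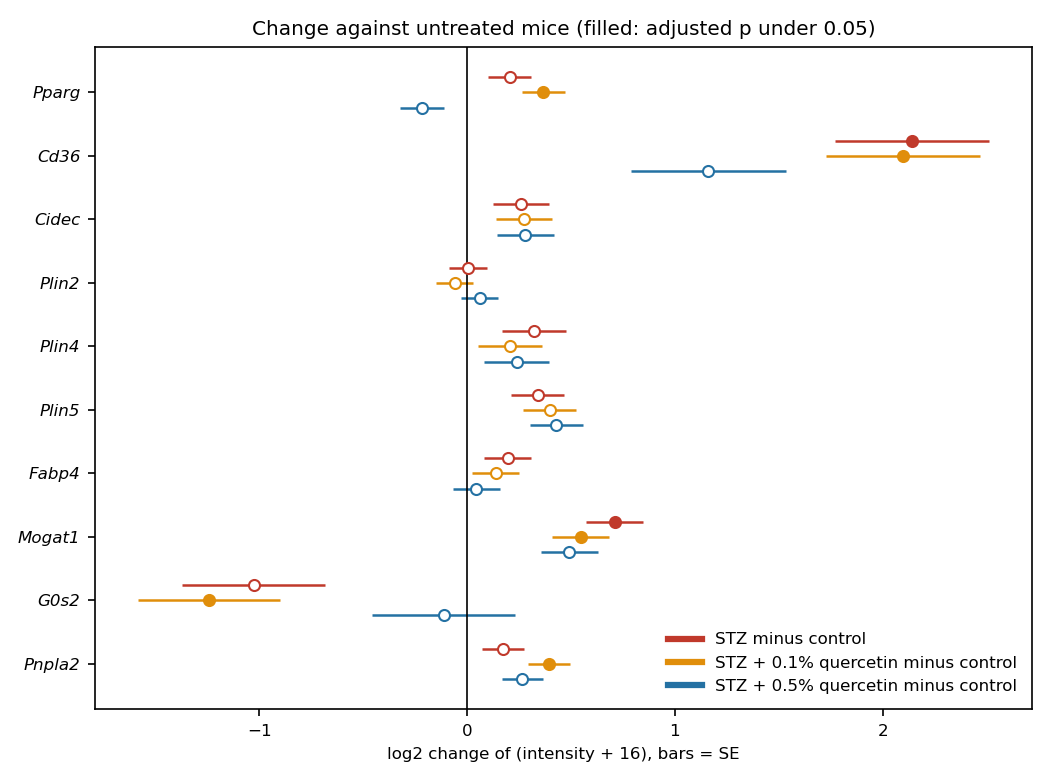
Difference of each of the 10 genes from untreated mice on the log2(intensity + 16) scale (x axis), with the standard error as a bar, 6 mice per group and 1 colour for each STZ group. Filled points had a limma adjusted p under 0.05; Cd36 stands at 2.14 in STZ mice, 2.10 at 0.1% quercetin and 1.16 at 0.5%, and G0s2 at -1.03, -1.24 and -0.11.

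Triglyceride assembly beside these genes had 2 of 12 called lower at 0.1% quercetin against untreated mice, *Gpam* (-0.65, limma adjusted p = 0.00154) and *Agpat2*, the acyltransferase of the second step (-0.43, limma adjusted p = 0.00588). *Fabp5* fell by 2.20 (limma adjusted p = 0.00945), the only call among 13 genes of fatty acid uptake, binding and activation. It was also 1 of 7 other PPAR-gamma targets tested, of which *Vldlr* rose by 0.60 (limma adjusted p = 0.0143). In the remaining lists 0 of 13 further droplet genes, 0 of 9 other lipases and cofactors and 0 of 12 PPAR-gamma partners and regulators were called. Of all genes tested at 0.1%, 2.94% were called higher and 2.64% lower. At 0.5% none of the 6 pathway lists held a called gene, where 0.13% of all genes were called.

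Whether *Pparg* varied with the other 9 genes from mouse to mouse was tested on deviations from the group means, with mice permuted within groups. No pair passed after adjustment over the 9 pairs. The highest Pearson r was that with *Mogat1*, at 0.55 over 24 mice (permutation p = 0.0329, adjusted p = 0.205; Spearman rho 0.37, permutation p = 0.0999, adjusted p = 0.266), and it was 0.15 without the 2 mice farthest from the *Pparg* median, so that it rested on those mice. With *Fabp4*, r was 0.48 (permutation p = 0.0455, adjusted p = 0.205) and rho 0.56 (permutation p = 0.0129, adjusted p = 0.116), and r was 0.54 without the same 2 mice. With *Cd36*, r was 0.17 (permutation p = 0.604, adjusted p = 0.670) and rho -0.15 (permutation p = 0.543, adjusted p = 0.815).

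The genes most like *Cd36* over the 24 livers were *Cyp2c39* (r = 0.98), *Cyp2b9* (0.97) and *Gsta2* (0.96), which encode 2 cytochromes P450 and a glutathione transferase. The genes named here for *Cd36* were picked as the highest r among the genes tested, and the points share the same groups and arrays. All r values with *Cd36* here, also those within groups, are therefore a description and not a test. After the group means were removed the leading genes were *Cyp2c39* (r = 0.94), *Cyp2b9* (0.93) and *Cyp2c38* (0.91). Without the 2 mice farthest from the *Cd36* median, that r of *Cyp2c39* was 0.89. Within the groups of 6, the r of *Cd36* with *Cyp2c39* was 0.71 in untreated mice, 0.86 in STZ mice, 0.93 at 0.1% quercetin and 0.98 at 0.5%. In the same order it was 0.44, 0.89, 0.96 and 0.96 with *Cyp2b9*, and -0.06, 0.97, 0.92 and 0.95 with *Gsta2*. *Cyp2c39* lay between 64.9 and 175 in untreated mice and between 604 and 1421 in STZ mice, and spanned 72.3 to 1296 at 0.5%.

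**Figure D4:**
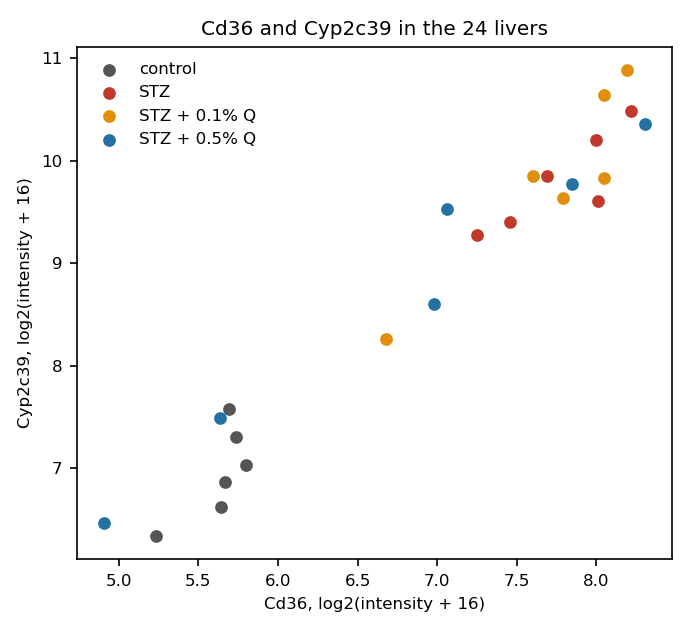
Level of Cd36 (x axis) against Cyp2c39 (y axis) in the 24 livers, both as log2(intensity + 16), with 1 point per mouse and 1 colour per group; Q stands for quercetin. Untreated mice lie at the lower left with 2 mice at 0.5% quercetin, and the remaining STZ mice form a rising band, with r = 0.94 after group means were removed.

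For *Pparg* the likeness was weaker. The genes named here for *Pparg* and *Cidec* were picked as the highest r among the genes tested, so they are a description and not a test. The leading genes of *Pparg* over all livers were *Polr3c* (r = 0.68), *Anxa5* (0.68) and *Lgmn* (0.65), and after group means were removed *Isoc1* (0.72), *Zfp729b* (0.70) and *Rmnd1* (0.70). Without the 2 mice farthest from the *Pparg* median of each measure, r was 0.50, 0.60 and 0.53 for the former. For the latter it was 0.71, 0.64 and 0.65. For *Cidec* they were *Rev1* (0.74), *Manea* (0.73) and *Sirpb1a* (0.66), and after group means were removed *Rev1* (0.71), *Lin7b* (0.71) and *Manea* (0.71).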

How the data were processed

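Total liver RNA of 24 mice was made into biotin-labelled cRNA and measured on Affymetrix 3′ arrays, per the labels' protocols. What was deposited is 1 intensity per mouse for each of 45101 probe sets. How the authors summarised and scaled the probes is not given in the sources used here, no detection calls were used, and array medians ran from 4.96 to 7.98. The scale was read as linear from its skew, and its target stays unknown.

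Intensities were quantile normalized over the 24 arrays and taken to log2(intensity + 16). The platform table gave 1 symbol to 34958 probe sets, several to 932 and none to 9211. Each gene was represented by its single-symbol probe set with the highest mean, and genes under the 40th percentile of probe set means were left out. One fit with 4 group means was made in limma 3.58.1 (R 4.3.3), two-sided, with Benjamini-Hochberg adjustment over 13114 genes and a threshold of 0.05. Quality was compared by exact permutation over 924 arrangements, and co-variation by 100000 permutations within groups. The procedure was tested on simulated data.

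All 10 genes are named. Of each of 6 pathway lists, up to 3 called genes with the largest change, or genes with the smallest p where none passed, are named. Marker lists of other liver cell types and of adipocytes were set as well, and for *Pparg*, *Cd36* and *Cidec* the 3 most like genes are given. The genes, the lists and the alternatives were chosen with earlier results of these data known. The labels number the mice in each group without saying that a number marks a cage or day. The alternatives covered normalization, constant, filter, probe set choice, samples fitted, replicate block, the *Gapdh* covariate and mice left out. Promoter sequences are of the RefSeq GRCm38.p6 assembly, made from C57BL/6J, and not of BALB/c.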

Additional observations from a re-analysis of the deposited data

Results flagged for a closer look

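Over the 10 genes, 40 groups of 6 mice were checked for a mouse far from the rest by Dixon's criterion, which chance passes in about 1 in 20 groups, and 6 passed. *Cd36* was 21.6 in control replicate 5, with the other untreated mice between 34.0 and 39.8. *Plin2* was 1885 in STZ replicate 6, with the others between 2448 and 2809. *Plin4* was 19.2 in STZ replicate 2, with the others between 9.0 and 11.8. *Plin5* was 279 in control replicate 5, with the others between 201 and 220, and 419 in 0.1% quercetin replicate 6, with the others between 264 and 292. *Mogat1* was 47.0 in 0.5% quercetin replicate 2, with the others between 14.4 and 23.7.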

How the results depend on the processing

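Counts of the 10 genes called stayed within 1.5 times under most alternatives. With the *Gapdh* covariate, 0 were called in STZ mice against untreated mice in place of 2, and 0 at 0.1% quercetin against untreated mice in place of 5. The latter count was 2 on the values as deposited and 3 with a constant of 1. At 0.5% against untreated mice it was 1 with median scaling and 3 without replicates 5 and 6, in place of 0. With each mouse left out in turn, counts ran from 2 to 3 for STZ against untreated mice, 3 to 5 for 0.1% and 0 to 2 for 0.5% against untreated mice, 0 to 1 for 0.5% against 0.1%, and stayed at 0 for either dose against STZ and for the slope.

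Whether the mouse numbers shared by the groups pair the mice was described and not tested. Deviations of same-numbered mice correlated at a mean r of 0.012 (-0.14 to 0.32), against -0.002 for other numbers. Of the same-numbered pairs, 5 of 36 were over 0.1, and 6 of 24 mice correlated best with their own number. With the replicate block 2 genes were called for STZ and 4 for 0.1% quercetin against untreated mice, where *Pparg* had a limma adjusted p of 0.0505.

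Some differences near 0 that were never called changed sign. With median scaling these were *Plin2* -0.11 (STZ minus control), -0.11 (0.5% minus control), *Plin5* -0.050 (0.5% minus STZ), -0.077 (0.5% minus 0.1%), -0.13 (the slope), *Pnpla2* -0.019 (0.5% minus STZ), -0.18 (the slope), *Cidec* -0.0085 (0.5% minus 0.1%) and *Fabp4* -0.10 (0.5% minus control). With trimmed mean scaling it was *Plin2* -0.083 (STZ minus control). On the values as deposited these were *Plin5* -0.015 (0.1% minus STZ), -0.069 (0.5% minus STZ), -0.054 (0.5% minus 0.1%), -0.14 (the slope), *Plin2* -0.015 (0.5% minus STZ), *Pnpla2* -0.037 (0.5% minus STZ), -0.20 (the slope) and *Cidec* -0.017 (0.5% minus 0.1%). With the Gapdh covariate these were *Cd36* 0.036 (0.1% minus STZ), *Plin4* -0.018 (0.5% minus 0.1%), *Plin2* 0.0032 (0.1% minus control), *G0s2* 0.23 (0.5% minus control) and *Cidec* -0.057 (the slope). With the mean of all probe sets of a gene these were *Plin5* -0.010 (0.5% minus STZ), -0.032 (0.5% minus 0.1%) and -0.038 (the slope). Without 0.5% replicates 5 and 6 these were *Cidec* -0.039 (0.5% minus STZ), -0.053 (0.5% minus 0.1%), -0.092 (the slope), *Fabp4* 0.023 (0.5% minus 0.1%) and *Mogat1* 0.027 (0.5% minus 0.1%). With each mouse left out in turn, values that crossed 0 ran as follows. For STZ against untreated mice *Plin2* from -0.028 to 0.087. For 0.1% against STZ *Cidec* from -0.10 to 0.10, *Plin5* from -0.035 to 0.11, *Cd36* from -0.15 to 0.16, *G0s2* from -0.37 to 0.054 and *Fabp4* from -0.11 to 0.016. For 0.5% against STZ *Cidec* from -0.044 to 0.10 and *Plin2* from -0.026 to 0.10. For 0.5% against 0.1% *Cidec* from -0.058 to 0.12, *Plin4* from -0.080 to 0.13, *Plin5* from -0.030 to 0.13 and *Mogat1* from -0.20 to 0.020. For 0.5% against untreated mice *Fabp4* from -0.021 to 0.12 and *G0s2* from -0.31 to 0.032. For the slope *Cidec* from -0.10 to 0.15, *Pnpla2* from -0.082 to 0.18 and *Plin4* from -0.18 to 0.0066. The slope already used only the mice it compares, so a fit of the compared groups alone is the same fit; each of the others was run. Dim genes and the number of arrays limit precision: the constant of 16 compresses changes of *Pparg*, *Cidec* and *Plin4*, and values near the filter have little order.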
